A study of Caenorhabditis elegans with 21 samples.

Results

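Fatty acid synthesis and desaturation in *C. elegans* run through a short chain of enzymes, and the 9 genes that encode its main steps were followed here across recurrent early life starvation. They are *pod-2* and *fasn-1*, which build the saturated chain, and the desaturase genes *fat-1*, *fat-2*, *fat-3*, *fat-4*, *fat-5*, *fat-6* and *fat-7*. They were taken by name, not by a cutoff on measured values, but with earlier results of these data known. All 9 were present among the 17720 rows used of the adult table and among the 23184 rows used of the L1 table. All 9 also passed the filter on low values, a mean normalized count of at least 10, together with 13413 genes in adults and 15902 in L1 animals, counted with the 9 included.

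RNA of whole N2 hermaphrodite animals, the wild-type laboratory strain, was sequenced in 21 libraries that form 7 groups of 3. Adults were collected at day 1 of adulthood with food present, about 100 per library, hand-picked. Control adults had always been fed and carried eggs. Fertile F4 L1starved adults carried eggs and sterile F4 L1starved adults carried none. Both came from lines starved as L1 larvae in every generation from P0 to F4, and so had themselves been starved as L1. L1 libraries held about 10000 larvae each, from control lines or from F4 L1starved + 3fed lines, whose ancestors were starved as L1 in the same way and whose later generations were raised on food. Larvae of both ancestries were collected either with food or without food since hatching. Larvae with food were collected at an earlier hour after egg preparation than larvae without it, so the effect of food and of collection time cannot be told apart. Sterile adults were selected for the absence of eggs, and in whole animals fewer cells of a type and less RNA per cell cannot be told apart.

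In *C. elegans*, POD-2, the acetyl-CoA carboxylase, makes malonyl-CoA, and FASN-1, the fatty acid synthase, uses it to build palmitic acid. FAT-5 desaturates mainly palmitic acid, whereas FAT-6 and FAT-7 desaturate stearic acid to oleic acid. FAT-2 then converts oleic to linoleic acid, FAT-3 and FAT-4 add further double bonds on the way to arachidonic and eicosapentaenoic acid, and FAT-1, the omega-3 desaturase, converts omega-6 to omega-3 fatty acids. The intestine, which is also the main fat store of the worm, is a major site of this pathway, and its products enter membranes, triglycerides and the yolk particles that are loaded into oocytes.

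The values are normalized counts, reads per gene scaled by the library's DESeq2 size factor, as the authors computed them. Adult libraries held 12187063 to 22942483 counted reads and L1 libraries 25209530 to 53482585, and the lowest value of any member, *fat-7* in a control larval library without food, rested on 51 reads. Each comparison was tested with limma on log2 of the normalized count plus 1, with Benjamini-Hochberg adjustment over all genes of the experiment, at an adjusted p under 0.05 in adults and under 0.1 in L1 animals. Fold changes are therefore on the log2(normalized count + 1) scale, and values after ± are SD over 3 libraries. The adult and L1 tables were normalized separately, so no level is compared between them. The defining markers of intestine were above a mean of 10 in all 7 groups for 12 of 12 genes, as were the neuron markers for 8 of 8.

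In the WBcel235 annotation, whose gene models give coding lengths of 999 bases (*fat-5*) to 7839 bases (*fasn-1*), 5 of the 9 genes lie on chromosome IV. Of these, *fat-1* and *fat-2* are direct neighbors on the same strand, as are *fat-4* and *fat-3*. *fat-6* is also on IV, *fat-5* and *fat-7* are on V, *pod-2* is on II and *fasn-1* is on I. *pod-2* overlaps the antisense gene *W09B6.4*, and *fat-5* overlaps 2 antisense genes, one of them the protein-coding *twk-42*. Whether the counting used strand is not given in the sources used here, so reads of these overlaps may be shared. *fat-6* and *fat-7* are close paralogs whose reads may be split between them, and their sum is given beside the single values where it differs in call.

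Compared per kilobase of coding sequence, *fat-1* and *fat-2* stood highest of the 9 genes in control adults and the palmitate desaturase *fat-5* lowest. The level was 3993 ± 227 normalized counts per kilobase for *fat-1* and 3272 ± 497 for *fat-2*, and the libraries of these genes overlapped. *fat-6* followed at 2207 ± 311 and *pod-2* at 1877 ± 76.5, which again overlapped, then *fat-4* at 1346 ± 51.2 and *fasn-1* at 1325 ± 59.3, which did not differ beyond their spread. *fat-3* at 883 ± 71.0 overlapped *fat-7* at 600.3 ± 179, and *fat-5* at 275 ± 24.1 lay below all others. In fed control larvae the order was led by *fat-2*, at 13200 ± 1601 normalized counts per kilobase and above every other member in each library. Below it *fasn-1*, *fat-3*, *fat-1*, *fat-6* and *pod-2* formed a run from 7958 to 4863 in which each overlapped its neighbor. *fat-4* at 2732 ± 315, *fat-7* at 639 ± 106 and *fat-5* at 196 ± 45.7 were each separated from the next.

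The first adult comparison asks how sterile F4 L1starved animals differ from continuously fed controls. All 9 genes were higher in sterile adults, by 1.62-fold for *pod-2* to 4.91-fold for *fat-5*, with a median log2 fold change of 1.33 over the 9 against 0.14 over all genes tested. Most of the transcriptome differed between these animals. Of all genes tested 83% passed the threshold, 41.3% were higher, and 43.3% were higher with libraries that did not overlap, so the 9 of 9 stand against a background of 41.3%.

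*fat-5*, the palmitate desaturase, read 300, 274 and 252 normalized counts in the 3 control libraries and 1512, 1219 and 1338 in the 3 sterile libraries. Every sterile library was at least at the level of 1219, far above the highest control. The log2 difference was 2.30 (SE 0.138, adjusted p = 1.98e-07), larger than that of 89.3% of genes tested. For the other members that share ran from 58.9% for *pod-2* to 81.4% for *fat-2*. For *fat-6* the control libraries gave 2431, 2423 and 1880 and the sterile libraries 4939, 5668 and 4414, a log2 difference of 1.16 (SE 0.128, adjusted p = 4.88e-06). *fat-7*, its paralog, varied most within groups, with 475, 815 and 536 in controls and 1134, 2201 and 1320 in sterile adults. The sterile libraries still lay above all controls, and the log2 difference was 1.33 (SE 0.239, adjusted p = 0.000249).

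Of the 2 synthesis genes, *fasn-1* changed more than *pod-2*. *fasn-1* read 10744, 10546 and 9859 in controls and 30837, 25654 and 29791 in sterile adults, and *pod-2* read 12728, 12105 and 11746 in controls and 18007, 17561 and 24311 in sterile adults. The log2 difference was 1.47 for *fasn-1* (SE 0.105, adjusted p = 3.42e-07) and 0.70 for *pod-2* (SE 0.137, adjusted p = 0.000505), and their 95% intervals, 1.24 to 1.70 and 0.40 to 1.00, do not overlap. The *pod-2* sterile group was spread by replicate 3, which was the highest of the 9 adult libraries.

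The genes of polyunsaturated fatty acid synthesis rose together. *fat-2*, which makes linoleic acid, went from 3376, 3359 and 4339 to 9689, 10233 and 13092, a log2 difference of 1.57 (SE 0.165, adjusted p = 3.16e-06). *fat-3* went from 1247, 1209 and 1067 to 3430, 3197 and 3380, a log2 difference of 1.51 (SE 0.103, adjusted p = 2.94e-07). *fat-1* and *fat-4* rose less, by 1.08 for *fat-1* (SE 0.105, adjusted p = 1.87e-06) and by 0.94 for *fat-4* (SE 0.0988, adjusted p = 3.36e-06). In controls *fat-1* ranged from 4502 to 4999.8 and *fat-4* from 1727 to 1856, and in sterile adults from 9189 to 10903 and from 3194 to 3684, with no overlap for either gene.

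**Figure D1:**
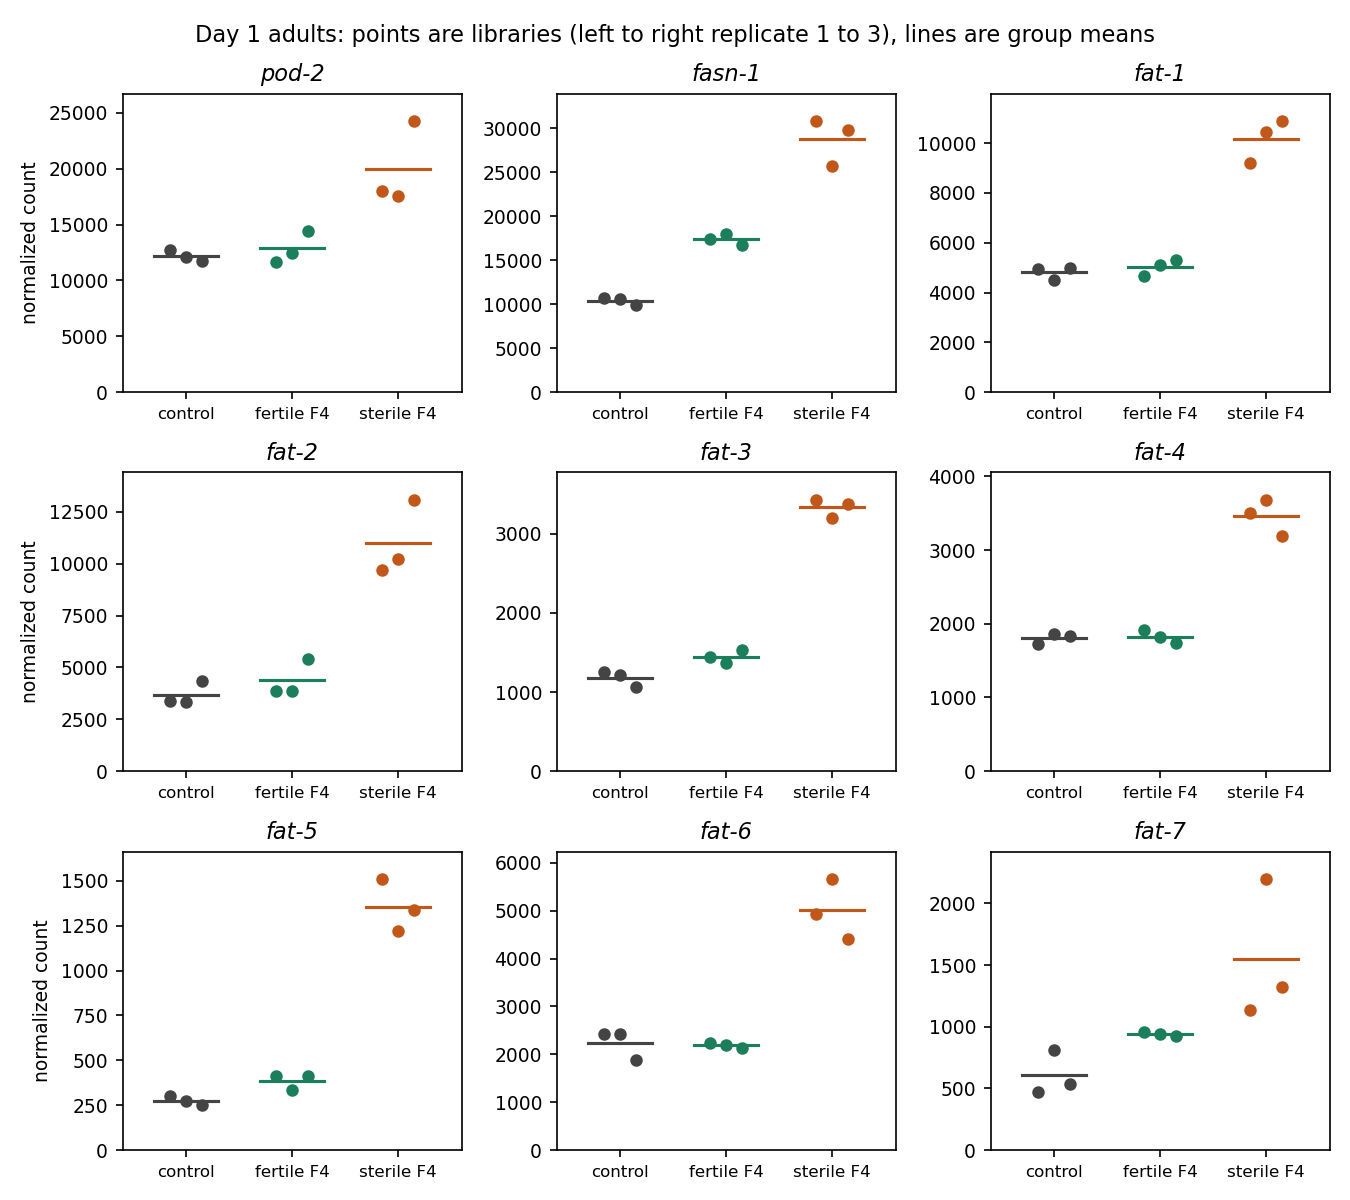
Normalized counts of the 9 genes in day 1 adults, 1 panel per gene with its own axis from 0, for controls and for the fertile and sterile animals of the F4 L1starved lines. Points are the 3 libraries of a group and lines their means. The sterile libraries lie above all control libraries in every panel. The fertile libraries do so for *fasn-1*, *fat-3*, *fat-5* and *fat-7*, of which only *fasn-1* and *fat-5* were called.

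These changes came with shifts in the marker RNA of several tissues. The summed normalized counts of 18 germline and oocyte markers were 179610 to 208620 in controls and 23815 to 48159 in sterile adults, and 18 of 18 were called lower. Sperm markers went the other way, with sums of 27.2 to 142 in controls and 5650 to 6798 in sterile adults and 11 of 11 tested called higher. Of the 12 listed, 8 had a mean under 10 in controls, 4 in fertile adults and 1 in sterile adults. Some of those tested therefore passed the filter only through the sterile libraries, which favored calls in this direction. Embryo markers summed to 1763 to 2054 and 740 to 913, and 8 of 9 tested were called lower. Markers of the intestine, a major site of fatty acid synthesis and desaturation, summed to 36782 to 42242 in controls and 56688 to 63310 in sterile adults. Of these 12 markers 6 were called higher and 1 lower, with a median log2 fold change of 0.57. Muscle and pharynx markers had a median of 1.21 with 7 of 8 higher, and neuron markers 1.25 with 7 of 8 higher and 1 lower, beside the 1.33 of the 9 fatty acid genes. Epidermis markers had a median of 0.11, with 2 higher and 2 lower of 7. The part that tissue content played in their rise was not tested. The 6 yolk protein genes, whose products carry lipid to oocytes, were all called higher, with sums of 1427600 to 1776300 in controls and 3784400 to 4770500 in sterile adults.

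Around the 9 genes, the rest of lipid synthesis was divided in sterile adults. Of 16 genes of triglyceride and phospholipid synthesis 5 were higher and 7 lower than in controls. Of all genes 41.3% were called higher and 41.8% lower, which is the background for this list and those below. *dgat-2*, a diacylglycerol acyltransferase that makes triglyceride, was 5.84-fold higher (167 ± 2.86 and 994 ± 205, adjusted p = 3.42e-07), and *acl-6*, a glycerol-3-phosphate acyltransferase, was 2.76-fold lower (adjusted p = 7.73e-06). *cept-2*, a choline/ethanolamine phosphotransferase, was 1.94-fold lower (adjusted p = 3.01e-05). In the supply of acetyl-CoA and NADPH 1 of 7 was higher and 2 were lower. *acly-2*, an ATP-citrate lyase, and *acs-19*, an acetyl-CoA synthetase, were 2.77-fold and 1.40-fold lower (adjusted p = 4.24e-06 and 0.000522), and *men-1*, a malic enzyme, was 1.27-fold higher (adjusted p = 0.0044).

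The partners of the desaturases also moved in part. Of 4 genes that pass electrons to them 3 were higher, among them the cytochrome b5 gene *cytb-5.1* at 1191 ± 341 against 626 ± 21.9 (1.85-fold, adjusted p = 0.000941). The cytochrome b5 reductase homologs *T05H4.4* and *hpo-19* were 2.75-fold and 1.18-fold higher (adjusted p = 0.00936 and 0.0363), and the *hpo-19* call was lost when any control library, sterile replicate 1 or 2 or fertile replicate 3 was left out (adjusted p = 0.05 to 0.0982). Of 13 regulators 4 were higher and 7 lower. *nhr-80*, a nuclear receptor known to activate *fat-6* and *fat-7*, went from 127 ± 21.1 to 364 ± 64.7 (2.84-fold, adjusted p = 1.5e-05). *nhr-66*, another nuclear receptor, was 2.65-fold lower (adjusted p = 4.04e-06). *acdh-11*, an acyl-CoA dehydrogenase known to restrain *fat-7*, was 1.77-fold higher (adjusted p = 4.62e-05).

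Among 12 elongation genes 6 were higher and 1 lower. The 3 with the smallest p were the elongase genes *elo-7*, *elo-8* and *elo-4*, which were near absent in controls. Their control means were 0.805, 1.21 and 7.63 normalized counts and their sterile means 90.1 ± 32.5, 108 ± 22.7 and 84.7 ± 22.1 (adjusted p = 8.58e-07, 1.09e-06 and 1.19e-05). *elo-7* and *elo-8*, with fertile means of 3.91 and 6.30, passed the filter only through the sterile libraries. Their place among the 6 higher genes was thus favored by the filter. With TMM scaling the median log2 fold change of all genes in this comparison moved from 0.14 to 0.32, the regulators split into 5 higher and 4 lower, and the triglyceride and phospholipid genes into 6 higher and 5 lower, so the larger side changed for both lists. The sperm markers given above moved in the same libraries and in the same direction as these 3 elongases, and whether they share a source was not tested.

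The second comparison, fertile F4 L1starved against control adults, concerns animals starved as L1 themselves, like their ancestors, that still carried eggs. Here 2 of 9 genes were called and both were higher, against 21.9% of all genes called and 9.86% called higher. *fasn-1* read 17386, 17988 and 16734 normalized counts in fertile adults against 10744, 10546 and 9859 in controls, a 1.67-fold rise (log2 0.74, SE 0.105, adjusted p = 0.00177). *fat-5* read 410, 337 and 411 against 300, 274 and 252, a 1.40-fold rise (log2 0.49, SE 0.138, adjusted p = 0.0294). All fertile libraries lay above all controls for both genes. The *fasn-1* call held under all 19 alternatives, whereas the *fat-5* call was lost when fertile replicate 1 or 3 or any 1 control library was left out, with an adjusted p of 0.0611 to 0.0989.

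For 2 further genes the fertile libraries lay above all controls without a call. *fat-7* read 954, 946 and 926 in fertile adults against 475, 815 and 536, a log2 difference of 0.67 (SE 0.239, adjusted p = 0.0638). *fat-3* read 1438, 1363 and 1533 against 1247, 1209 and 1067, a log2 difference of 0.30 (SE 0.103, adjusted p = 0.0571). So 4 of 9 genes were higher with libraries that did not overlap, against 18.5% of all genes. Both were called with TMM scaling, with edgeR, with DESeq2 and with only the groups compared in the fit. Over all alternatives their adjusted p ran from 0.00567 to 0.237 for *fat-7* and from 0.00947 to 0.181 for *fat-3*. The other 5 genes overlapped between the groups, with log2 fold changes of -0.03 for *fat-6*, 0.02 for *fat-4*, 0.06 for *fat-1*, 0.07 for *pod-2* and 0.24 for *fat-2*. Their 95% intervals exclude a rise above 0.60 on the log2 scale, the upper bound for *fat-2*.

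The scaling of the libraries bears on this comparison. With TMM scaling the median log2 fold change of all genes moved from -0.11 to 0.02, and the calls moved from 1323 higher and 1613 lower to 1744 higher and 821 lower. Relative to the median of all genes, the 9 genes had a median of 0.24 against -0.11 with the authors' scaling and 0.37 against 0.02 with TMM scaling.

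A ratio of genes within a library does not depend on that scaling. *fasn-1* over *pod-2* was 0.844, 0.871 and 0.839 in control adults, 1.49, 1.44 and 1.16 in fertile adults, and 1.71, 1.46 and 1.23 in sterile adults. Reads of the synthase were thus fewer than reads of the carboxylase in every control library and more numerous in every F4 L1starved library, and the fertile and sterile ratios overlapped. That order is not corrected for coding length, 7839 bases for *fasn-1* and 6495 for *pod-2*. Per kilobase, *fasn-1* stayed below *pod-2* in fertile replicate 3, at 2135 against 2223. The share of *fat-7* within *fat-5*, *fat-6* and *fat-7* together was 14.8% to 23.2% in controls and 26.5% to 27.2% in fertile adults, without overlap, and 15% to 24.2% in sterile adults.

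In the same fertile adults, of 12 elongation genes 4 were lower and 1 was higher, and with TMM scaling 2 were lower and 1 higher. The 1 higher with the authors' scaling, singled out after its values were seen, was *elo-8*, with means of 6.30 in fertile and 1.21 in control adults (adjusted p = 0.0245). *elo-5*, an elongase needed for branched-chain fatty acids, was 1.76-fold lower (1629 ± 240 against 2856 ± 136, adjusted p = 0.00577). *elo-2*, an elongase of palmitic acid, was 1.63-fold lower (991 ± 128 against 1610 ± 79.3, adjusted p = 0.009). *elo-3* was 1.37-fold lower (adjusted p = 0.0174), a call lost with TMM scaling and without fertile replicate 2 or 3 or control replicate 1 or 2 (adjusted p = 0.0516 to 0.0804). None of 4 electron donor genes, 13 regulators and 7 supply genes was called with limma under either scaling. *acl-2*, an acyltransferase of phospholipid synthesis, was the 1 call among 16 triglyceride and phospholipid genes, 1.5-fold lower (adjusted p = 0.013, and 0.0526 or 0.051 without control replicate 1 or 2). Germline and oocyte markers summed to 117300 to 152290 in fertile adults, below the control range given above, with 2 of 18 called lower. Intestine markers summed to 35481 to 40390, which overlaps the controls, with 1 of 12 called lower, and with TMM scaling 2 were called higher and none lower. Yolk proteins summed to 1784900 to 2046000, above the control range, with 0 of 6 called. Muscle and pharynx markers summed to 120620 to 140300 against 104070 to 113740 in controls, with 2 of 8 called higher, and 4 of 8 neuron markers were called higher and 1 lower. Of 11 sperm markers 2 were called higher. The sperm marker sums of fertile and control adults overlapped, with a highest sum of 507 against 142 in controls. Embryo markers summed to 1430 to 1507, below the control range, with 1 higher and 1 lower of 9, and epidermis markers had 1 higher and 1 lower of 7. Their part in the changes of the 9 genes was not tested.

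**Figure D2:**
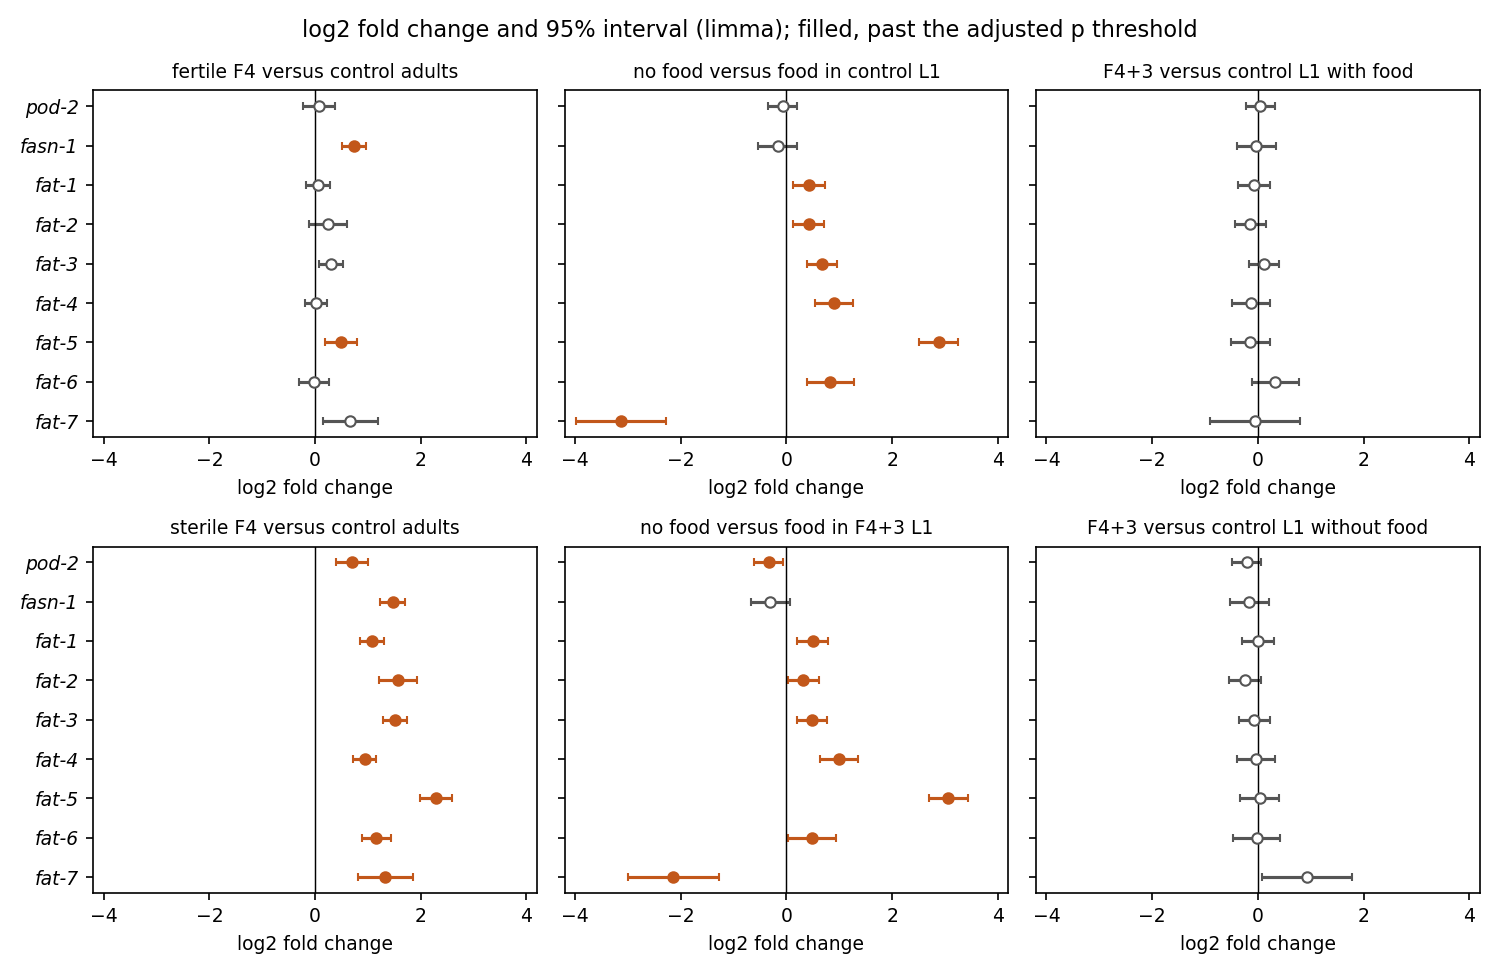
Log2 fold changes of the 9 genes with 95% intervals from limma in 6 comparisons, filled where the adjusted p passed the threshold of its experiment. All 9 are filled and above 0 for sterile adults, *fat-5* and *fat-7* point in opposite directions for larvae without food, and no gene is filled for F4 L1starved + 3fed against control larvae.

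Sterile and fertile F4 L1starved adults were both starved as L1, like their ancestors, and were separated by the presence of eggs. They also differed at all 9 genes. Each was higher in sterile adults, against 78.4% of all genes called, 38.8% called higher, 39.6% called lower and 38.9% higher without overlap. *fat-5* was again the most changed, 3.51-fold (log2 1.81, SE 0.138, adjusted p = 3.16e-06). *fat-2*, *fat-3*, *fat-6* and *fat-1* followed at 2.52-fold, 2.31-fold, 2.27-fold and 2.02-fold, then *fat-4* at 1.89-fold, *fasn-1* at 1.65-fold, *fat-7* at 1.58-fold and *pod-2* at 1.54-fold. The *fat-7* difference (log2 0.66, SE 0.239, adjusted p = 0.0241) was the least stable. It was 0.38 with an adjusted p of 0.107 without sterile replicate 2, which read 2201 where the other sterile libraries read 1134 and 1320. Without fertile replicate 2 or 3 its adjusted p was 0.0568 and 0.0581. The sum of *fat-6* and *fat-7* was 2.07-fold higher (adjusted p = 3.61e-05).

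Elongation genes followed the same pattern in this comparison, with 11 of 12 higher and none lower. *elo-6*, which acts with *elo-5* on branched-chain fatty acids, read 5236 ± 748 in sterile and 1818 ± 453 in fertile adults (2.92-fold, adjusted p = 1.13e-05), and *elo-7* and *elo-8*, with means of 3.91 and 6.30 in fertile adults, were again higher (adjusted p = 1.52e-05 and 4.07e-05). The place of *elo-7* and *elo-8* among the 11 was again favored by the filter, which they passed only through the sterile libraries. All 4 electron donor genes were higher, with *cytb-5.1* at 2.33-fold (adjusted p = 0.000118), *hpo-19* at 1.38-fold (adjusted p = 0.000947) and *cytb-5.2* at 1.27-fold (adjusted p = 0.0173, and 0.0615 without sterile replicate 2). *nhr-80* was 2.60-fold and *acdh-11* 1.59-fold higher, *nhr-66* was 2.04-fold lower (adjusted p = 5.24e-05, 0.000321 and 7.78e-05), and the 13 regulators split into 4 higher and 4 lower. Supply genes split into 2 higher, *men-1* and *acly-1* (1.43-fold and 1.21-fold, adjusted p = 0.000329 and 0.0266, the latter lost without sterile replicate 2 or 3 or fertile replicate 1, or with only the groups compared, at 0.0503 to 0.0854), and 2 lower, with *acly-2* at 2.21-fold lower (adjusted p = 5.18e-05). *dgat-2* was 4.08-fold and *pmt-2*, a methyltransferase of phosphatidylcholine synthesis, 1.86-fold higher (adjusted p = 4.88e-06 and 3.48e-05), and *acl-6* was 2.28-fold lower (adjusted p = 6.74e-05), among 6 higher and 3 lower of 16. Germline and oocyte markers were lower in 18 of 18 and sperm markers higher in 11 of 11 here too, the latter again favored by the filter. Intestine markers had 7 of 12 higher and none lower, with a median of 0.66 against 1.02 for the 9 genes. The medians were 1.03 for muscle and pharynx markers (7 of 8 higher, 1 lower), 0.81 for neuron markers (5 of 8 higher), 1.20 for yolk proteins (6 of 6 higher) and -1.54 for epidermis markers (2 higher and 4 lower of 7). The part of tissue content in these differences was not tested.

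In L1 larvae, the desaturase genes other than *fat-7* were higher without food and *fat-7* was lower, in a contrast that also differs in collection time. In control larvae without food 6 of 9 genes were higher and 1 was lower than in control larvae with food, against 27.6% of all genes called higher, 30.5% called lower and 58.1% called in all. The libraries of 6 of the 9 did not overlap, against 58.3% of all genes. The median log2 fold change of the 9 was 0.42, against 0.04 over all genes.

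The palmitate and stearate desaturases showed the extremes. *fat-5* read 246, 182 and 158 normalized counts with food and 1626, 1377 and 1281 without, a 7.36-fold rise (log2 2.88, SE 0.173, adjusted p = 8.05e-09). *fat-7* read 582, 591 and 772 with food and 82.5, 95.3 and 47.9 without, 8.78-fold lower (log2 -3.13, SE 0.401, adjusted p = 1.13e-05). The groups lay far apart for both genes, and the rise of *fat-5* exceeded that of 99.2% of genes tested while 0.73% of genes had a lower log2 fold change than *fat-7*. *fat-6*, the close paralog of *fat-7*, moved against it, with 7571, 4688 and 6590 with food and 13712, 11952 and 8060 without (1.78-fold, SE of log2 0.209, adjusted p = 0.00383). *fat-6* supplied 85.9% to 90.1% of the summed counts of the 3 genes with food and 85.8% to 89% without. The sum of *fat-6* and *fat-7* was therefore called higher, 1.62-fold (adjusted p = 0.0111), although *fat-7* alone fell.

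Without food *fat-7* and *fat-5* exchanged places. The ratio of *fat-5* to *fat-7* was 0.423, 0.307 and 0.205 in control larvae with food and 19.7, 14.5 and 26.7 without. In F4 L1starved + 3fed larvae it was 0.229, 0.319 and 0.309 with food and 4.19, 10.2 and 27.2 without. *fat-7* exceeded *fat-5* in all 6 larval libraries with food and *fat-5* exceeded *fat-7* in all 6 without. Since both coding sequences are about equally long (999 and 1014 bases), the order was the same per kilobase. In adults, all with food, the ratio was below 1 in every control and fertile library and 1.33, 0.554 and 1.01 in sterile adults, so *fat-5* reached or passed *fat-7* in 2 of the 3 sterile libraries.

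The polyunsaturated fatty acid genes rose moderately in control larvae without food. *fat-4* read 3832, 3976 and 3183 with food and 8068, 6063 and 6444 without (1.87-fold, log2 0.90, SE 0.167, adjusted p = 0.000367). *fat-3* read 9573, 10491 and 11147 with food and 17336, 16196 and 16066 without (1.59-fold, log2 0.67, SE 0.133, adjusted p = 0.000655). Both were cleanly separated. *fat-1* and *fat-2* were each 1.34-fold higher (adjusted p = 0.02 and 0.0191). The *fat-2* libraries overlapped, with 13533 to 16936 with food and 16907 to 21650 without, and the *fat-1* call was lost without control replicate 1 of the larvae without food (adjusted p = 0.109). The synthesis genes were not called, with log2 fold changes of -0.07 for *pod-2* (95% interval -0.35 to 0.20) and -0.17 for *fasn-1* (-0.54 to 0.20).

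**Figure D3:**
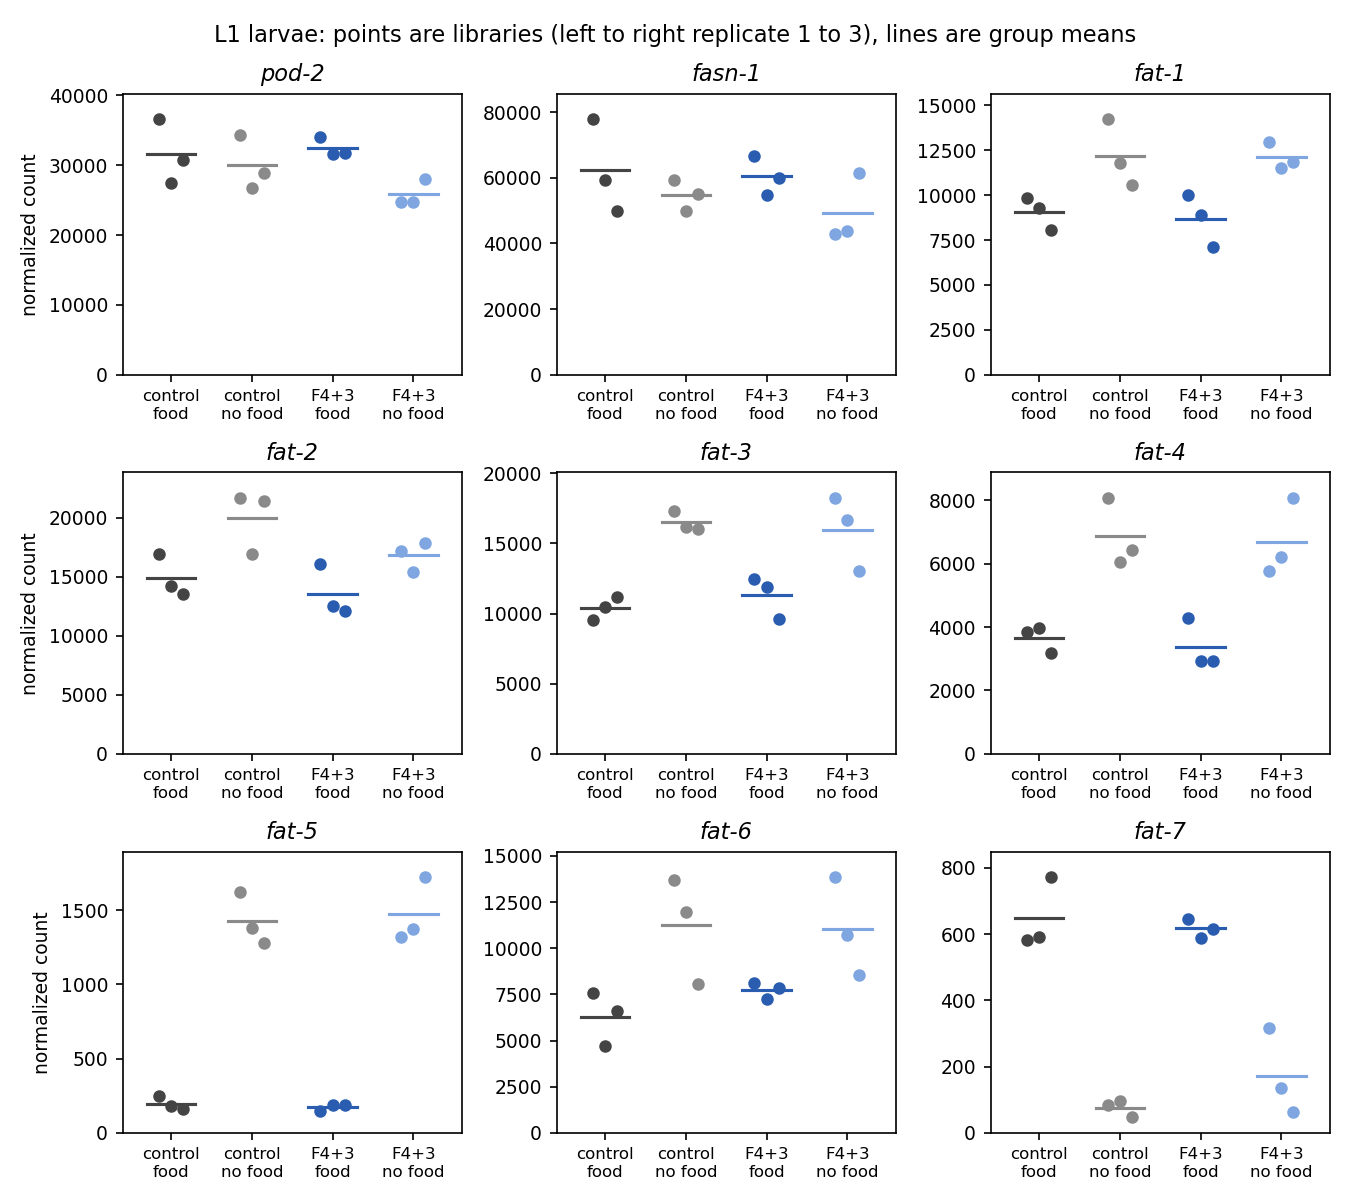
Normalized counts of the 9 genes in L1 larvae, 1 panel per gene with its own axis from 0, for control and F4 L1starved + 3fed (F4+3) larvae with and without food. Points are the 3 libraries of a group and lines their means. In both ancestries *fat-5* is higher and *fat-7* lower in all 3 libraries without food than in all 3 with food.

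F4 L1starved + 3fed larvae with and without food differed at most of the same steps. Of the 9 genes 6 were higher and 2 lower without food, against 27.1% of all genes called higher, 30.4% called lower and 57.5% called in all. The libraries did not overlap for 7 of 9, against 59.3% of all genes. *fat-5* read 148, 188 and 190 with food and 1318, 1373 and 1723 without (8.34-fold, log2 3.06, SE 0.173, adjusted p = 6.42e-09). *fat-7* read 646, 589 and 616 with food and 315, 134 and 63.4 without, 4.4-fold lower (log2 -2.14, SE 0.401, adjusted p = 0.00039). All 3 libraries without food lay below those with food, and they were spread more widely.

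*fat-4* was 1.99-fold higher (adjusted p = 0.000151), and *fat-1* and *fat-3* were each 1.41-fold higher (adjusted p = 0.00791 and 0.00631). The other 3 calls depended on single libraries. *fat-6* was 1.40-fold higher (adjusted p = 0.0669) and *fat-2* 1.25-fold higher (adjusted p = 0.0679), and *pod-2* fell by 0.33 on the log2 scale (adjusted p = 0.0437), with 34089, 31635 and 31719 with food and 24754, 24702 and 28089 without. Without replicate 1 of the F4 L1starved + 3fed larvae without food none of these 3 passed (adjusted p = 0.259, 0.13 and 0.101), and 5 of 9 genes were left. Each was also lost without at least 1 other F4 L1starved + 3fed library, and the sum of *fat-6* and *fat-7* was not called (1.31-fold, adjusted p = 0.127). *fasn-1*, at 54872 to 66499 with food and 42997 to 61477 without, was not called (log2 -0.31, adjusted p = 0.154), but passed with TMM scaling (adjusted p = 0.0947), without replicate 3 of the larvae without food (0.0334) and without control replicate 1 of the larvae with food (0.082).

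**Figure D4:**
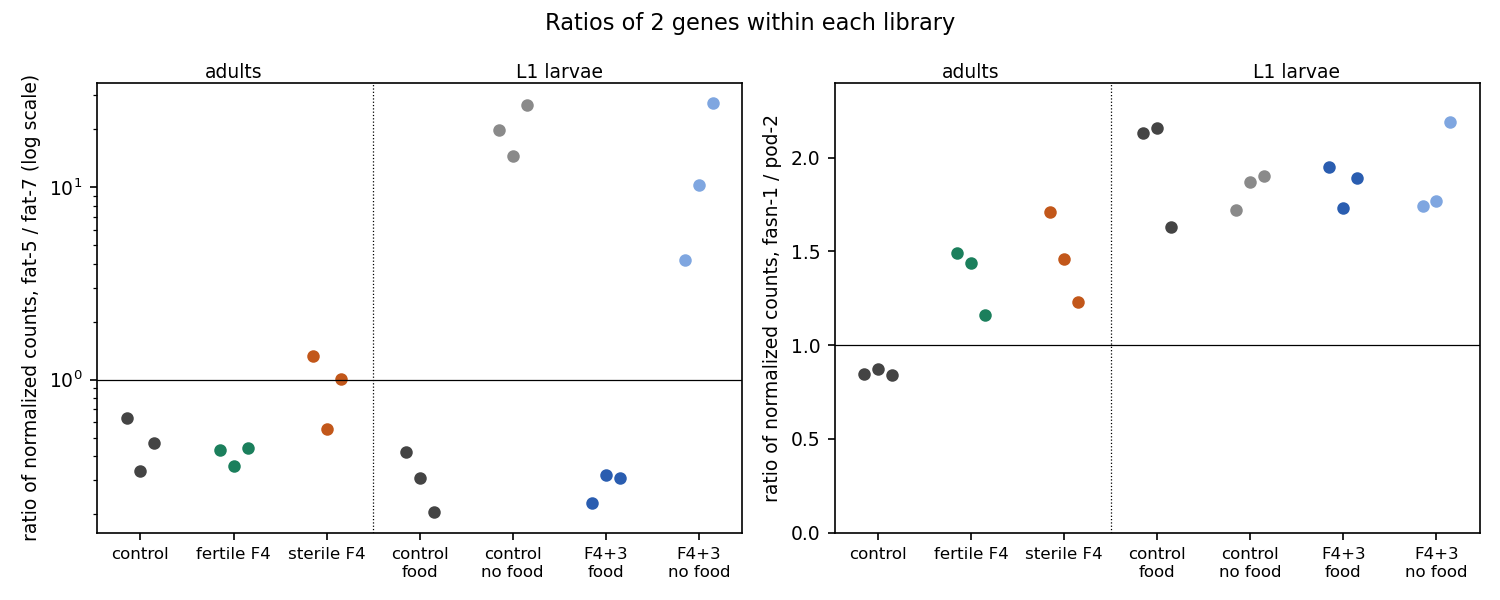
Ratios of normalized counts within each library for *fat-5* to *fat-7* (log scale) and *fasn-1* to *pod-2* (linear scale), in the 3 adult and 4 larval groups (F4+3, F4 L1starved + 3fed). The horizontal line marks equal counts, not corrected for coding length. All 6 larval libraries without food lie above it for *fat-5* to *fat-7* and all 6 with food below it, and the 3 control adult libraries are the only ones below it for *fasn-1* to *pod-2*.

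The elongation genes fell as a group, whereas among the desaturase genes only *fat-7* fell. Of 10 tested, 9 were lower without food in control larvae and 9 in F4 L1starved + 3fed larvae, with none higher and medians of -0.99 and -0.94. *elo-2* went from 10619 ± 1706 to 2073 ± 61.3 in controls and *elo-5* from 6492 ± 1190 to 1255 ± 65.6 (5.07-fold and 5.12-fold lower, adjusted p = 3.08e-09 and 4.46e-08). In F4 L1starved + 3fed larvae they were 5.95-fold and 5.30-fold lower (adjusted p = 1.92e-09 and 3.73e-08). *art-1*, a reductase of the elongation cycle, was 3.01-fold and 2.77-fold lower (adjusted p = 9.73e-09 and 2.1e-08).

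In controls without food 9 of 16 triglyceride and phospholipid genes were lower and 2 higher, and in F4 L1starved + 3fed larvae 8 and 3. *sams-1*, which makes the methyl donor S-adenosylmethionine, went from 77510 ± 13420 to 9148 ± 1402 in controls and was 8.45-fold and 8.53-fold lower in the 2 ancestries (adjusted p = 6.22e-09 and 8.12e-09). *cept-1*, a phosphotransferase of the same pathway, was 3.96-fold and 5.42-fold lower (adjusted p = 9.27e-08 and 1.62e-08). *pmt-2* was 3.36-fold lower in controls (adjusted p = 2.39e-07), and *pcyt-1*, which makes CDP-choline, 4.07-fold lower in F4 L1starved + 3fed larvae (adjusted p = 8.83e-08).

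Supply genes split. *idh-1*, an NADP-dependent isocitrate dehydrogenase, was 2.69-fold lower in both ancestries (adjusted p = 1.98e-06 and 1.84e-06) and *men-1* was 1.43-fold and 1.35-fold lower (adjusted p = 0.000355 and 0.00141). *mlcd-1*, malonyl-CoA decarboxylase, which removes the product of POD-2, was 2.36-fold and 4.06-fold higher (adjusted p = 0.000351 and 3.23e-06). In each ancestry 2 of 7 were higher and 3 lower. Of all genes 27.6% were called higher and 30.5% lower in controls, and 27.1% and 30.4% in F4 L1starved + 3fed larvae. Of the electron donors *hpo-19* was lower by 1.82-fold and 1.70-fold and *cytb-5.1* by 1.55-fold and 1.58-fold, while *cytb-5.2* was higher by 1.58-fold and 1.48-fold (adjusted p between 2.85e-05 and 0.00109 for these 3 genes in both ancestries).

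Among 13 regulators 5 were higher and 3 lower in control larvae without food and 7 higher and 1 lower in F4 L1starved + 3fed larvae. *mdt-15*, a Mediator subunit known to activate desaturase genes, was 1.56-fold and 1.71-fold higher (adjusted p = 0.000714 and 0.000131). *daf-16*, the FoxO factor of insulin signaling, was 1.67-fold and 1.51-fold higher (adjusted p = 0.000229 and 0.00131). *pqm-1*, a zinc finger factor, was 1.49-fold lower in controls (adjusted p = 0.000205) and *acdh-11* 1.5-fold higher in F4 L1starved + 3fed larvae (adjusted p = 0.00221). Intestine markers also differed between larvae with and without food. They summed to 556640 to 707250 with food and 403020 to 430260 without in controls, and to 563810 to 594320 and 443920 to 508810 in F4 L1starved + 3fed larvae, with 8 and 7 of 12 lower and 3 higher in each. Epidermis markers, the marker list with the lowest median in both ancestries, summed to 12329 to 15602 with food and 6403 to 9018 without in controls and to 13507 to 17356 and 7998 to 10188 in F4 L1starved + 3fed larvae. Of the 6 tested, 5 were lower in controls and 6 in F4 L1starved + 3fed larvae, with medians of -1.03 and -1.05. Neuron markers summed to 49639 to 54999 with food and 63356 to 70607 without in controls, with 6 of 8 called higher in each ancestry. The part of these shifts in the changes of the 9 genes was not tested.

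Ancestral starvation by itself left no call among the 9 genes in larvae. With food, 0 of 9 passed for F4 L1starved + 3fed against control larvae and 0 of 9 had libraries that did not overlap, against 0.0126% of all genes called (2 genes) and 12.8% without overlap. The log2 fold changes ran from -0.14 for *fat-5* to 0.33 for *fat-6* (adjusted p = 0.86 and 0.698). The intervals of 8 genes excluded a difference above 0.78 in either direction, and that of *fat-7* ran from -0.91 to 0.79. Over all genes 1366 had an unadjusted p under 0.05 in limma, none of them a member, and edgeR called 2 genes and DESeq2 216, again none a member.

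Without food 0 of 9 passed, against 0% of all genes, and 0 of 9 were without overlap, against 10.6% of all genes. Across all genes 811 had an unadjusted p under 0.05, edgeR called 0 and DESeq2 48, none a member. *fat-7* was the 1 member with an unadjusted p under 0.05, at 0.0338, and its adjusted p was 0.941. It read 315, 134 and 63.4 in F4 L1starved + 3fed larvae against 82.5, 95.3 and 47.9 in controls, a log2 difference of 0.94 (SE 0.401) that exceeded that of 99.3% of genes. The groups overlapped. Replicate 1 carried most of the difference, and over all alternatives, which include its omission, the log2 fold change ran from 0.35 to 1.5 with an adjusted p never below 0.259. The other 8 genes lay between -0.24 for *fat-2* and 0.04 for *fat-5*.

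The difference between the ancestries in the contrast of larvae without and with food was tested as an interaction. None of 9 genes passed (adjusted p = 1 for each), against 0% of all genes. There 636 genes had an unadjusted p under 0.05, edgeR called 0 and DESeq2 17, none a member. The largest member value was that of *fat-7*, 1.00 on the log2 scale (SE 0.566, unadjusted p = 0.0991), with a 95% interval of -0.21 to 2.20. For *fat-5* it was 0.18 (95% interval -0.34 to 0.70). *pod-2*, called for food in F4 L1starved + 3fed larvae and not in controls, had an interaction of -0.26 (95% interval -0.65 to 0.13).

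Across the 9 adult libraries all pairs of members correlated positively, which is a description over libraries that share 3 groups and for which no p is given. Pearson's r of log2 values was 0.878 to 0.998 over the 15 pairs of *fat* genes other than *fat-7* and 0.753 to 0.805 for *fat-7* with the other 6. It was 0.828 for *pod-2* with *fasn-1* and 0.655 to 0.951 for these with the *fat* genes. The closest pair, *fat-3* and *fat-5*, had an r of 0.998. *fat-5* was the third most similar of 9955 genes to *fat-3*, after *tbc-7* and *T28C6.7*, and *tbc-7*, *haf-4* and *apm-1* were the most similar to *fat-5* (each at 0.998 or 0.999). *pab-2* led for *fasn-1* (0.995), *ahcy-1* for *pod-2* (0.969), *gad-3* for *fat-6* (0.997) and *pgp-8* for *fat-7* (0.963).

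Across the 12 L1 libraries the 9 genes fell into separate patterns. *pod-2* and *fasn-1* correlated at 0.822 with each other and at -0.648 to 0.349 with the *fat* genes. The 6 *fat* genes other than *fat-7* correlated at 0.527 to 0.924 among themselves, and *fat-7* was negative with all 6, from -0.531 with *fat-6* to -0.912 with *fat-5*. The most similar genes to *fat-5* were *C27B7.9* (0.996), *lbp-1* (0.995) and *zmp-4* (0.993), and to *fat-7* *Y65B4BL.1* (0.987), *his-6* (0.982) and *Y106G6H.14* (0.982). No member was among the 3 genes most similar to another member in larvae. These libraries share the food contrast, and no p is given.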

How the data were processed

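RNA of whole N2 animals was sequenced in 21 libraries by the study, which describes independent biological replicates. Per the labels, Subread, featureCounts and DESeq2 were used, versions not given in the sources used here, with the WS220 genome release named in the study's methods. The deposited tables hold, for each library, a signal per gene made by the authors by dividing gene counts by a size factor. In 7 of the adult columns a few deposited cells were below 0 and so are of another kind. The 3 adult rows concerned, and 1 L1 row, were left out. Deposited columns of fold changes and p-values from the authors' own comparisons were not used. No column of per-library values was left unused.

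Dividing by the value of 1 read gave whole reads for 100% of values within 0.1, and these served for edgeR 4.0.16 and DESeq2 1.42.0 as alternatives. Libraries held 12187063 to 22942483 reads in adults and 25209530 to 53482585 in L1, counting error only being covered by such depths. The main test was limma 3.58.1 in R 4.3.3, with a trend in the variance, on log2(normalized count + 1) of genes with a mean of at least 10, all groups of an experiment in 1 fit, two-sided. Confidence intervals are at 95%. Scripts were tested on simulated data. Gene names, coding lengths, chromosomes, strands, neighbors and overlaps came from a WBcel235 annotation, no position of which is printed, and 17717 of 17720 adult and 23159 of 23184 L1 identifiers matched.

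Alternatives were other pseudocounts (0.5 and 5), no filter or a mean of at least 50, a replicate block, TMM scaling, only the groups compared, *fat-6* and *fat-7* summed, and each library left out. All 9 members are named, with up to 3 genes per pathway list and comparison with the smallest p among those called and the genes most like a member (highest Pearson r, mean at least 50). The members and lists were chosen with earlier results of these data known. Protein and promoter sequences were not used here.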

Additional observations from a re-analysis of the deposited data

How the results depend on the processing

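Of 1478 values of the 9 genes under the alternatives, 1442 kept their side of the threshold, 20 lost a call and 16 gained one. Of called values 0 changed sign, whereas 35 of the 1442, all uncalled, did. Of 1300 values of named pathway genes 20 lost a call. In fertile against control adults, where 2 members were called, 4 were called with TMM scaling, edgeR, DESeq2 and only the groups compared, and 1 to 4 when single libraries were left out. The count was 1 without fertile replicate 1 or 3 or control replicate 1 or 3, and 4 without sterile replicate 1. For food in F4 L1starved + 3fed larvae the count of 8 ran from 5 to 9, with 5 without replicate 1 of the larvae without food. It ran from 6 to 7 in control larvae and from 8 to 9 for sterile against fertile adults, and stayed at 9 for sterile against control adults and at 0 for ancestry and the interaction.

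Same-numbered libraries correlated in their deviations at -0.29 to 0.384 in adults and -0.161 to 0.174 in larvae. For differently numbered libraries the range was -0.245 to 0.202 in adults and -0.274 to 0.199 in larvae. The numbers were not read as pairs, but these ranges cannot exclude pairing. The study describes adult controls as collected alongside F4 L1starved adults, and eggs of control and ancestrally starved lines as harvested together. With the replicate block 3 members were called for fertile against control adults (*fat-7* added, adjusted p = 0.0213), and 9, 9, 7 and 8 for the other comparisons with calls. The *hpo-19* call for sterile against control adults was lost with it (adjusted p = 0.0592). Over all genes, calls for fertile against control adults went from 2936 to 5085 with only the groups compared, and were 975 to 4880 when single libraries were left out. For ancestry with food they went from 2 to 52 with the block and 216 with DESeq2, without food from 0 to 3 and 48, and for the interaction from 0 to 1 and 17. The causes were not tested. Of the 9 genes, *fat-7* had the fewest reads, in larvae without food, with a lowest library of 51 in controls and 79 in F4 L1starved + 3fed larvae. Its SD over the 3 libraries was 32.6% and 75.8% of the mean there, so the spread between libraries also limits it.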
